A study of Mus musculus with 36 samples.

Results

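The 7 mature microRNAs (miRNAs) mmu-miR-322-5p, mmu-miR-322-3p, mmu-miR-503-5p, mmu-miR-351-5p, mmu-miR-542-3p, mmu-miR-450a-5p and mmu-miR-450b-5p, which come from the cluster of Mir322, Mir503, Mir351, Mir542 and the Mir450 genes, were selected by name from the 1963 mature miRNAs listed for the ventral and lateral prostate lobes of male mice. Small RNA was sequenced in 36 libraries, 3 in each of 12 groups that combine 3 Elac2 genotypes, the presence or absence of the TRAMP (transgenic adenocarcinoma of the mouse prostate) transgene and an age of 10 or 30 weeks, and all mice were of the strain given as C56NL/6N. The species prefix mmu is left out of names from here on. WT mice were ELAC2+/+. KO mice carried a homozygous deletion of Elac2 made by Pb-Cre, whose probasin promoter is active in prostate epithelium, so that stroma and other cells keep the gene. The Elac2 messenger RNA was not measured by these libraries, so nothing in them checks the genotype. A537T mice were homozygous throughout the body for the Ala537Thr change in ELAC2. Mice called WT-TRAMP, A537T-TRAMP or KO-TRAMP also carried 1 copy of TRAMP (TRAMP +/-), which drives the SV40 T antigens (large-T and small-t) in prostate epithelium, likewise from the probasin promoter. ELAC2 is the endonuclease that trims the 3′ end of transfer RNA precursors, and the study asked how its loss or mutation changes RNA in the normal and the tumour-prone prostate. The study describes the miRNA libraries as biological replicates from 3 age- and littermate-matched males of each line and time point, so the p-values measure the spread between mice.

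Clustered miRNAs are cut from shared primary transcripts by Drosha and Dicer, and 1 or both arms of each hairpin can then guide an Argonaute protein to messenger RNAs that pair with bases 2 to 8 of the miRNA, the seed. miR-322, the rodent counterpart of human miR-424, and miR-503 are relatives of the miR-15/16 family, which represses cell cycle genes such as cyclins and Cdc25a, and both are known from the differentiation of skeletal muscle. miR-351 has the seed of miR-125, the miRNA related to lin-4 of worms. The targets of miR-542-3p, miR-450a and miR-450b are less well known.

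The mature sequences, from RefSeq, are shown 5′ to 3′ with the seed in capitals, because the seed decides which messenger RNAs a miRNA can pair with and which miRNAs are its relatives.
miR-322-5p: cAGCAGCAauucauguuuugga
miR-322-3p: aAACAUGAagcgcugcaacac
miR-503-5p: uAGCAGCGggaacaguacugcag
miR-351-5p: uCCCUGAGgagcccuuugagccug
miR-542-3p: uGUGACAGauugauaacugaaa
miR-450a-5p: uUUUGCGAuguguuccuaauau
miR-450b-5p: uUUUGCAGuauguuccugaaua

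The seeds of miR-322-5p and miR-503-5p were the same at 6 of 7 positions, and those of miR-450a-5p and miR-450b-5p at 5 of 7 positions. Compared position by position without gaps, miR-450a-5p and miR-450b-5p shared 15 of 22 bases, more than any other pair of the 7, and miR-322-5p and miR-503-5p shared 11 of 22. Outside the cluster, miR-322-5p has the seed of 5 miRNAs that passed the minimum level used for testing. They are shown, followed by the relatives of miR-351-5p, because their levels are set beside those of the cluster further on.
miR-15a-5p: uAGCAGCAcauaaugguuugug
miR-15b-5p: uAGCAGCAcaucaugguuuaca
miR-16-5p: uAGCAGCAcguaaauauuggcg
miR-195a-5p: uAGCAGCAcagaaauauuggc
miR-497a-5p: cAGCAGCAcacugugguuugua
miR-125a-5p: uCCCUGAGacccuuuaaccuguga
miR-125b-5p: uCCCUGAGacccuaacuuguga

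The 7 precursors lie within 6353 bases of the minus strand of chromosome X (GRCm38.p6, chrX:53047997-53054349). From the upstream end they are ordered Mir322 (chrX:53054255-53054349), Mir503 (chrX:53053984-53054054), Mir351 (chrX:53053255-53053353), Mir542 (chrX:53049403-53049487), Mir450-2 (chrX:53048299-53048367), Mir450-1 (chrX:53048154-53048244) and Mir450b (chrX:53047997-53048078). In GENCODE each hairpin is an exon of its own miRNA gene and overlaps no exon of another gene in this stretch. The non-coding gene C430049B03Rik (chrX:53055046-53057190) ends upstream of Mir322 on the same strand, and the non-coding gene Gm28730 (chrX:53051194-53053159) lies between Mir351 and Mir542. miR-450a-5p has the same sequence in Mir450-1 and Mir450-2, so its reads cannot be divided between the pair. The 7 precursors give 13 mature miRNAs in the tables, the 7 members and 6 other arms.

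**Figure D1:**
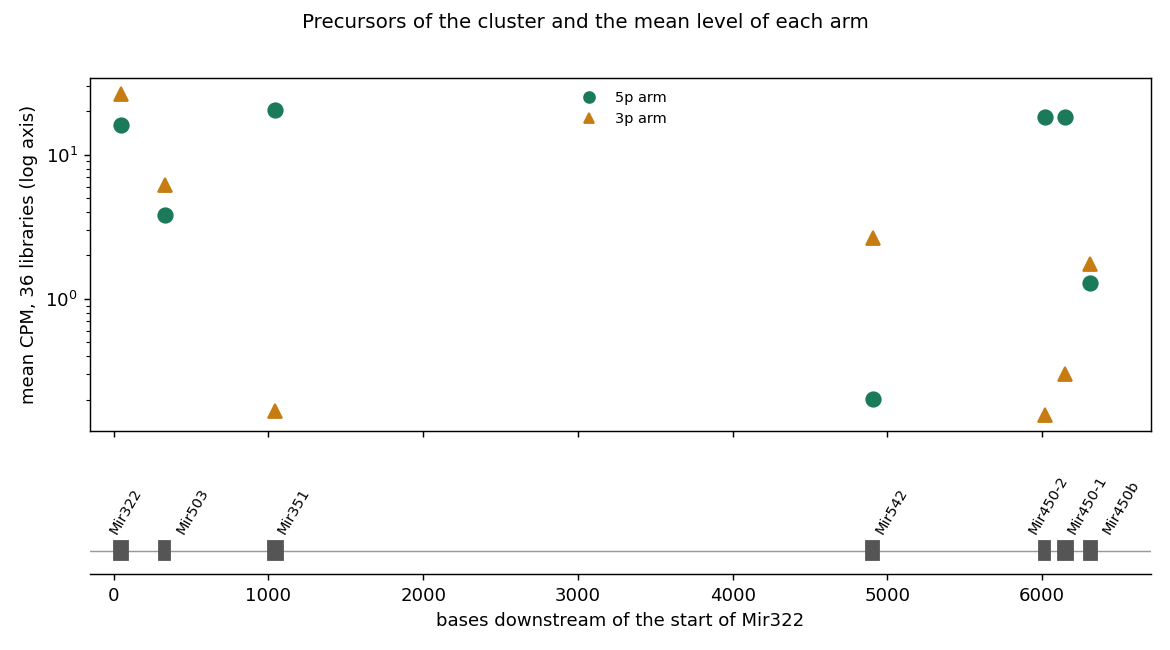
Position of the 7 precursors in bases downstream of the start of Mir322 (lower strip, boxes to scale) and the mean level of the 5p arm (circles) and 3p arm (triangles) of each over 36 libraries, in counts per 1000000 miRNA reads (CPM) on a log axis. miR-450a-5p is drawn at both of its precursors, at 18.3 CPM. The means run from 0.158 CPM for miR-450a-2-3p to 26.2 CPM for miR-322-3p.

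Libraries held 655455 to 21870210 miRNA reads. Library 35 of A537T mice at 10 weeks was the shallowest, and the next lowest total was 4544257, so that 1 read was worth 1.53 CPM in library 35 and at most 0.220 CPM elsewhere. miRNAs of epithelium, the miR-200 family with miR-205 and miR-375, took 3.84% to 10.3% of the reads in every library, so the epithelium of the labelled tissue was present. miRNAs of skeletal muscle (miR-1a, miR-133a, miR-133b, miR-206, miR-208b and miR-499) took 9.73% to 30.7% in WT and 3.72% to 13.7% in A537T at 10 weeks, 0.736% to 6.51% in KO at 10 weeks and at most 3.09% in any library of the other 9 groups. Library numbers run in blocks by TRAMP, age and Elac2 line. The labels do not say what the numbers stand for, and any effect that followed them cannot be told apart from these factors. In bulk tissue, fewer cells of a type and less RNA per cell cannot be told apart.

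All 7 members were scarce. Their summed level was 88.8 ± 35 CPM (SD, n = 36), with a range of 35.3 CPM in a KO-TRAMP library of 10 weeks to 186 CPM in an A537T library of 10 weeks. By mean CPM over the 36 libraries, miR-322-3p stood at rank 224 of 1963 with 26.2 CPM, followed by miR-351-5p with 20.4, miR-450a-5p with 18.3 and miR-322-5p with 16.1 CPM. The other members were lower, with 3.79 CPM for miR-503-5p, 2.62 for miR-542-3p and 1.29 for miR-450b-5p. The mature lengths are 21 to 24 bases, so that reads per miRNA are close to a per-length scale. How well each sequence was captured was not measured, so ranks between miRNAs are ranks of reads. Depth limited miR-542-3p and miR-450b-5p most, each of which was read only once in its lowest library. The single read of miR-542-3p in WT-TRAMP library 1 of 10 weeks gave 0.220 CPM with an exact 95% binomial interval of 0.00557 to 1.23 CPM, whereas the 62 reads of miR-322-3p in the same library gave 13.6 CPM with an interval of 10.5 to 17.5. Such intervals cover counting error only.

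miR-322-5p, the arm of Mir322 with the miR-15/16 seed, had means within a 2.41-fold range. At 10 weeks without TRAMP its mean level was 20.1 ± 9.19 CPM in WT, 18 ± 0.617 in KO and 23.3 ± 7.62 in A537T (SD, n = 3 in each group), and at 30 weeks it was 9.65 ± 4.72, 9.77 ± 2.75 and 16.1 ± 5.34 CPM in the same order. With TRAMP it was 12.1 ± 2.53 CPM in WT-TRAMP, 13.9 ± 6.94 in KO-TRAMP and 13.6 ± 5.80 in A537T-TRAMP at 10 weeks, and 20.3 ± 8.65, 18.8 ± 0.633 and 17.7 ± 2.69 CPM at 30 weeks. When the 12 groups were ordered by their mean, every neighbour in the order overlapped the next, from 23.3 CPM in A537T at 10 weeks down to 9.65 CPM in WT at 30 weeks.

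miR-322-3p, the opposite arm of the same hairpin, was the highest member in the 10-week prostate without TRAMP. In mice of 10 weeks without TRAMP the mean level was 46.0 ± 12.7 CPM in WT, 29.1 ± 3.11 in KO and 53.7 ± 16.3 in A537T (SD, n = 3 in each group), and at 30 weeks it was 21.5 ± 6.17, 21.2 ± 3.13 and 24.8 ± 8.04 CPM in the same order. In the TRAMP groups it was 14.4 ± 0.853 CPM in WT-TRAMP, 18.3 ± 7.14 in KO-TRAMP and 15 ± 5.26 in A537T-TRAMP at 10 weeks, and 23.8 ± 6.70, 26.5 ± 6.37 and 20.4 ± 2.51 CPM at 30 weeks. This was the 1 member with a step in its order, since all 3 A537T libraries and all 3 WT libraries of 10 weeks were above every library of the group that came next, KO at 10 weeks.

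miR-503-5p, whose seed differs from that of miR-322-5p at a single position, was lowest in the 10-week TRAMP groups. Without TRAMP, at 10 weeks, its mean level was 5.45 ± 1.22 CPM in WT, 4.09 ± 0.545 in KO and 5.83 ± 1.66 in A537T (SD, n = 3 in each group), and at 30 weeks it was 2.73 ± 1.23, 2.88 ± 0.783 and 3.48 ± 0.458 CPM in the same order. The TRAMP groups held 1.66 ± 0.469 CPM in WT-TRAMP, 1.92 ± 0.616 in KO-TRAMP and 2.32 ± 0.207 in A537T-TRAMP at 10 weeks, and 6.51 ± 4.44, 5.35 ± 1.67 and 3.28 ± 0.385 CPM at 30 weeks. Every neighbour in its order overlapped the next, and the SD of WT-TRAMP at 30 weeks rested on libraries that ranged from 1.98 to 10.9 CPM.

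miR-351-5p, with the seed of miR-125, had group means that correlated with those of miR-322-3p, at r = 0.95 over the 12 groups. At 10 weeks without TRAMP its mean level was 32.9 ± 7.85 CPM in WT, 26.1 ± 3.85 in KO and 36.3 ± 13.3 in A537T (SD, n = 3 in each group), and at 30 weeks it was 17.8 ± 5.90, 17.1 ± 0.572 and 19.3 ± 4.49 CPM in the same order. With TRAMP it was 11.1 ± 0.894 CPM in WT-TRAMP, 13.4 ± 6.19 in KO-TRAMP and 13.6 ± 3.81 in A537T-TRAMP at 10 weeks, and 18.7 ± 5.91, 25.2 ± 3.85 and 13.3 ± 1.27 CPM at 30 weeks. Neighbours in its order all overlapped.

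miR-542-3p was the member with the widest relative range. In mice of 10 weeks without TRAMP the mean level was 2.22 ± 1.34 CPM in WT, 3.92 ± 0.412 in KO and 3.85 ± 1.19 in A537T (SD, n = 3 in each group), and at 30 weeks it was 0.914 ± 0.689, 1.42 ± 0.823 and 1.61 ± 0.658 CPM in the same order. In the TRAMP groups it was 0.886 ± 0.681 CPM in WT-TRAMP, 2.75 ± 0.954 in KO-TRAMP and 2.03 ± 0.640 in A537T-TRAMP at 10 weeks, and 4.41 ± 3.70, 4.61 ± 0.924 and 2.86 ± 0.391 CPM at 30 weeks. The means ran 5.20-fold from the lowest to the highest group, against 2.36-fold for miR-450a-5p, and neighbours in the order overlapped throughout.

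miR-450a-5p was read at nearly the level of miR-322-5p. Without TRAMP, at 10 weeks, its mean level was 22.6 ± 7.97 CPM in WT, 23.8 ± 2.62 in KO and 29.6 ± 4.45 in A537T (SD, n = 3 in each group), and at 30 weeks it was 14.2 ± 4.6, 13.2 ± 2.48 and 18.9 ± 4.37 CPM in the same order. The TRAMP groups held 13.9 ± 0.618 CPM in WT-TRAMP, 12.5 ± 4.12 in KO-TRAMP and 14.6 ± 5.27 in A537T-TRAMP at 10 weeks, and 20.9 ± 5.40, 20.6 ± 4.95 and 15 ± 0.466 CPM at 30 weeks. Its order again held no step between neighbours.

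miR-450b-5p, the paralogue of miR-450a-5p, was the scarcest member. At 10 weeks without TRAMP its mean level was 1.53 ± 0.710 CPM in WT, 1.51 ± 0.768 in KO and 1.63 ± 0.101 in A537T (SD, n = 3 in each group), and at 30 weeks it was 0.718 ± 0.483, 0.686 ± 0.297 and 1.09 ± 0.445 CPM in the same order. With TRAMP it was 0.809 ± 0.314 CPM in WT-TRAMP, 0.903 ± 0.436 in KO-TRAMP and 0.812 ± 0.0998 in A537T-TRAMP at 10 weeks, and 2.07 ± 0.581, 2.13 ± 0.0869 and 1.57 ± 0.639 CPM at 30 weeks. It was read 1 to 46 times per library, and neighbours in its order overlapped.

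**Figure D2:**
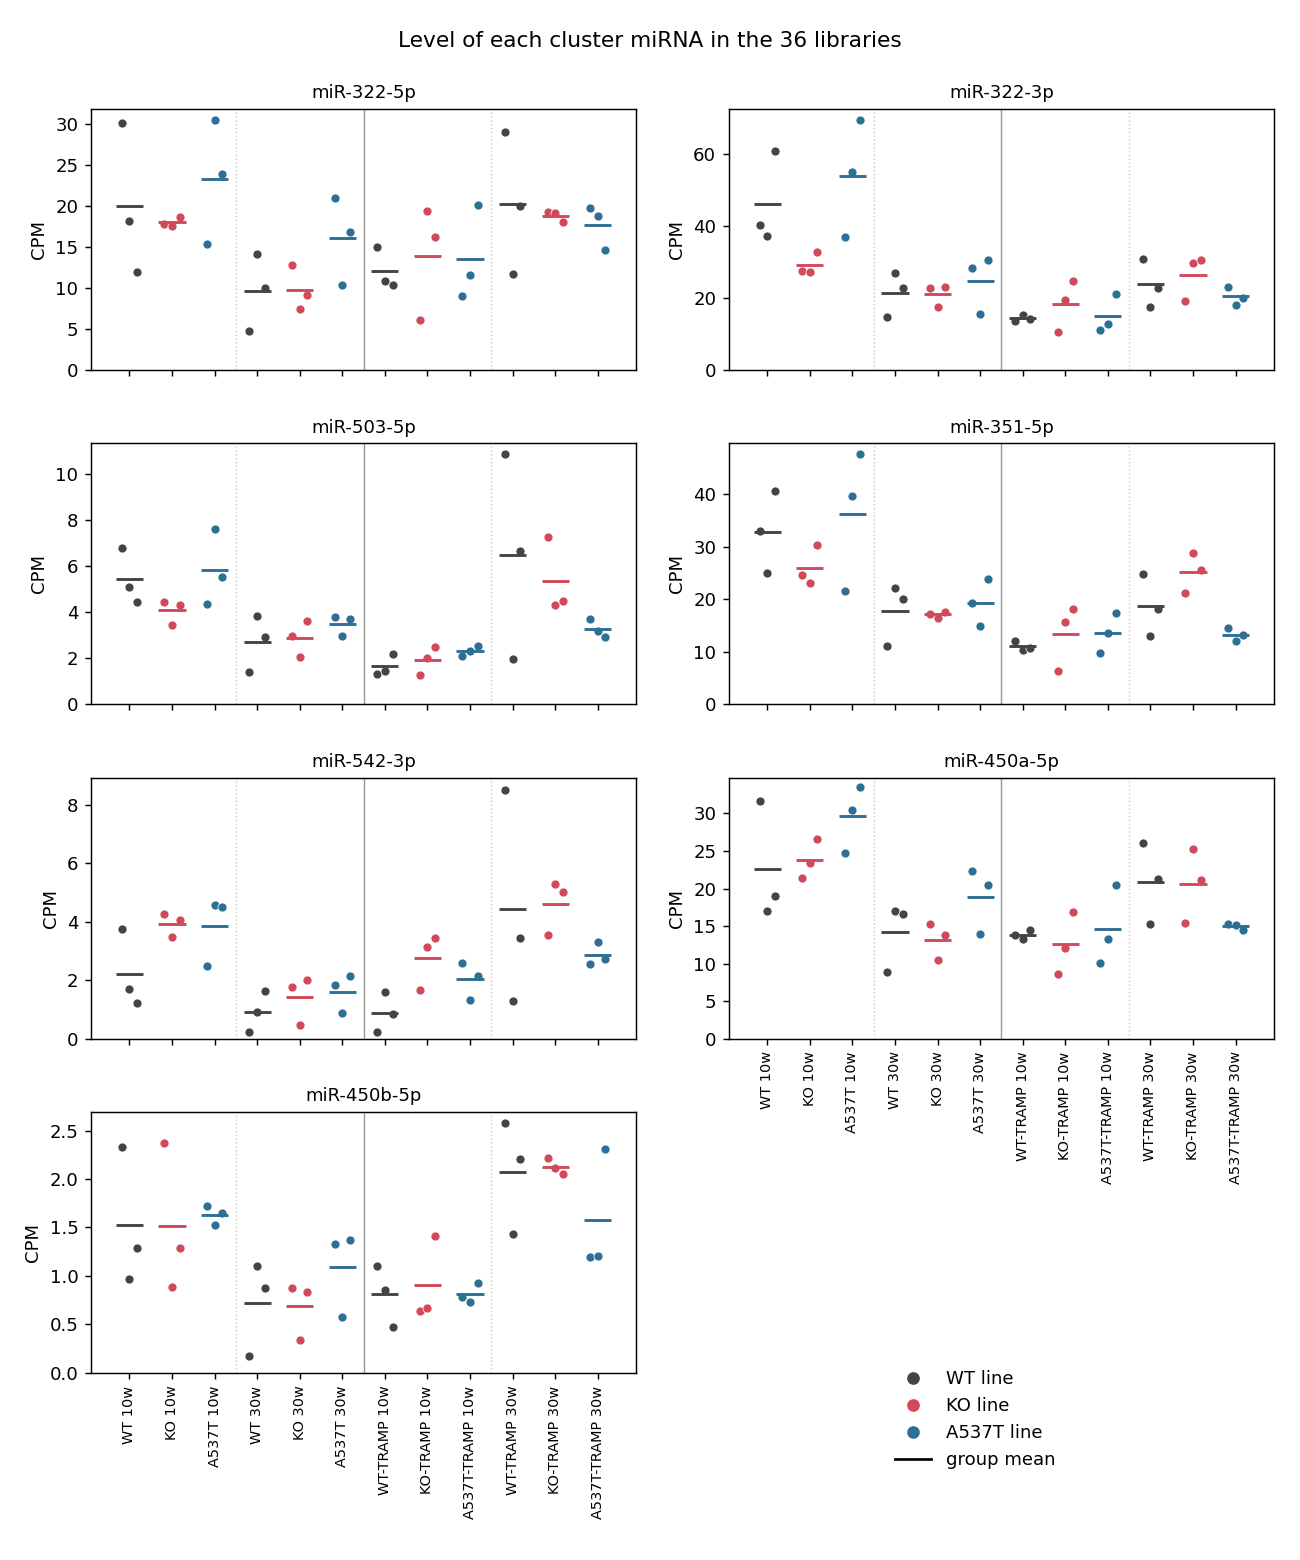
CPM of each member (y axes, all from 0) in the 36 libraries, by group (x axis), with points for libraries, bars for group means and colour for the Elac2 line; the solid vertical line divides groups without TRAMP from those with it. miR-322-3p and miR-351-5p are highest at 10 weeks without TRAMP, and in WT-TRAMP at 30 weeks library 10 stands at the top and library 11 at the bottom for each of the 7 members.

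The first comparison asked how the cluster differs with the TRAMP transgene, and at 10 weeks its members were lower with TRAMP in all 3 Elac2 lines. Fold changes are differences of log2(CPM + 1) from limma, fitted to all 36 libraries and adjusted by Benjamini-Hochberg over the 514 miRNAs with a mean of at least 1 CPM, a minimum that all 7 members passed. The added 1 CPM makes the change of scarce members look smaller than it is. The SE of a member is pooled over the 12 groups, so it does not follow the spread of the groups compared. In WT mice miR-322-3p, miR-351-5p and miR-503-5p fell. In KO mice miR-351-5p, miR-450a-5p and miR-503-5p fell, and in A537T mice these 3 fell together with miR-322-3p. The sign was negative for 7 of 7 members in each line. Members called lower numbered 3 of 7 in WT against 14.2% of all miRNAs tested, 3 of 7 in KO against 28.4% and 4 of 7 in A537T against 22.4%. The median of the members and of all 514 miRNAs was -0.76 and -0.05 in WT, -0.71 and -0.40 in KO and -1.01 and -0.22 in A537T, so the general shift was largest in KO.

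miR-322-3p was measured at 40.2, 37.2 and 60.6 CPM in the WT libraries and at 13.6, 15.3 and 14.2 CPM in the WT-TRAMP libraries of 10 weeks. The groups did not overlap, and the level fell by 1.58 ± 0.31 (SE; adjusted p = 0.000187). In A537T mice it stood at 36.9, 54.9 and 69.4 CPM without TRAMP and 11.2, 12.9 and 21.1 CPM with it, again without overlap, and fell by 1.77 ± 0.31 (SE; adjusted p = 0.000105), the largest change of any member in the 6 TRAMP comparisons. In KO mice the libraries also separated, at 27.4, 27.1 and 32.7 against 10.6, 19.5 and 24.7 CPM, but the difference of -0.71 ± 0.31 (adjusted p = 0.0630) did not pass.

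miR-351-5p fell in all 3 lines. WT libraries held 33.1, 24.9 and 40.6 CPM and WT-TRAMP libraries 12.1, 10.5 and 10.7 CPM, a fall of 1.46 ± 0.32 (SE; adjusted p = 0.000599). KO libraries held 24.5, 23.2 and 30.4 and KO-TRAMP libraries 6.38, 15.6 and 18.1 CPM, a fall of 1.02 ± 0.32 (SE; adjusted p = 0.0131), which was -0.61 relative to the median of all miRNAs in that comparison. A537T libraries held 21.6, 39.7 and 47.6 and A537T-TRAMP libraries 9.83, 13.6 and 17.4 CPM, a fall of 1.31 ± 0.32 (SE; adjusted p = 0.00265). In each line every TRAMP library was below every library without it.

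miR-503-5p fell by 1.28 ± 0.33 (SE; adjusted p = 0.00332) in WT mice, with 6.81, 5.10 and 4.44 CPM in the WT and 1.32, 1.46 and 2.19 CPM in the WT-TRAMP libraries. It fell by 0.81 ± 0.33 (SE; adjusted p = 0.0477) in KO, from 4.47, 3.46 and 4.33 to 1.28, 2.00 and 2.5 CPM, and by 1.01 ± 0.33 (SE; adjusted p = 0.0201) in A537T, from 4.35, 7.63 and 5.52 to 2.12, 2.30 and 2.54 CPM. TRAMP and other libraries did not overlap in any of the lines, although the KO value was only -0.41 relative to the median of all miRNAs. miR-450a-5p fell by 0.91 ± 0.28 (SE; adjusted p = 0.0129) in KO, from 21.4, 23.3 and 26.6 to 8.67, 12.1 and 16.9 CPM, and by 1.01 ± 0.28 (SE; adjusted p = 0.00793) in A537T, from 24.8, 30.5 and 33.5 to 10.1, 13.3 and 20.4 CPM. In WT its difference was -0.62 ± 0.28 (adjusted p = 0.0981), which did not pass by limma but did by edgeR, DESeq2 and TMM scaling, and 31.7, 17 and 19.1 CPM in WT lay above 13.9, 13.3 and 14.5 CPM in WT-TRAMP.

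The remaining 3 members did not pass at 10 weeks by limma. miR-322-5p differed by -0.62 ± 0.40 (adjusted p = 0.253) in WT, -0.49 ± 0.40 (adjusted p = 0.309) in KO and -0.75 ± 0.40 (adjusted p = 0.136) in A537T, miR-542-3p by -0.76, -0.43 and -0.67, and miR-450b-5p by -0.46, -0.38 and -0.54. Over all 7, the TRAMP libraries lay wholly below the others for 4 members in WT, 5 in KO and 5 in A537T, against 17.9%, 37.2% and 33.1% of all miRNAs tested. The share of all miRNAs was highest in KO. Members varied together from library to library, so these counts are not of independent cases. The calls for miR-322-3p and miR-351-5p in WT and A537T and for miR-503-5p in WT were kept in every alternative that tested them. In KO the calls depended on the method and on single libraries. edgeR called miR-450a-5p alone there and DESeq2 called 0 members, at -0.64 (adjusted p = 0.10), -0.57 (adjusted p = 0.0722) and -0.76 (adjusted p = 0.143) for miR-351-5p, miR-450a-5p and miR-503-5p. The call of miR-503-5p was also lost under TMM scaling at -0.64 (adjusted p = 0.0991), with a pseudocount of 10 CPM and without a filter. Without library 7, miR-351-5p changed to -0.59, miR-450a-5p to -0.69 and miR-503-5p to -0.64, and without library 33 miR-351-5p changed to -0.90, none of which passed. Leaving out 1 library ended the KO call of miR-503-5p in 22 of 36 fits, library 7 included, at -0.91 to -0.64. Most of these left out a library outside the groups compared and kept the value of -0.81, so the call lay at the threshold. In A537T, miR-450a-5p was lost without library 4, at -0.79, and miR-503-5p without library 4 or 35, at -0.97 and -0.83, and by DESeq2, at -0.97 (adjusted p = 0.0665).

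Markers of other cell types moved in the same comparisons. Of the skeletal muscle list, 6 of 6 tested miRNAs fell with TRAMP in WT, 2 of 6 in KO and 5 of 6 in A537T at 10 weeks, and the summed share was at most 3.09% in the TRAMP libraries against the shares given above without TRAMP. Of the list for stroma and smooth muscle (miR-143, miR-145a, miR-199 and miR-214), 0 of 6 fell in WT, 6 of 6 in KO and 4 of 6 in A537T, with summed shares of 7.22% to 30.5%, 30.6% to 36.2% and 18.4% to 40.3% without TRAMP and 9.20% to 11.4%, 7.60% to 17.2% and 7.99% to 22.8% with it. Both tested arms of miR-126 in endothelium fell in WT and KO and 1 of 2 in A537T, with 1.41% to 1.86% of reads in WT and 0.543% to 0.648% in WT-TRAMP. Of the 7 epithelial miRNAs, 4 rose in WT, 3 rose and 2 fell in KO and 3 rose in A537T. Of all miRNAs tested at 10 weeks, 14.2% were called lower in WT, 28.4% in KO and 22.4% in A537T. The share called higher is not given here. The part of these cell types in the fall of the cluster was not tested. KO libraries 31 and 33 held 0.773% and 0.736% of skeletal muscle miRNAs, near the TRAMP libraries, and their miR-351-5p of 24.5 and 30.4 CPM was above the highest KO-TRAMP library, at 18.1 CPM. The same KO group held 30.6% to 36.2% of stroma and smooth muscle miRNAs, against 7.60% to 17.2% in KO-TRAMP. These values are a description, and neither part was tested. Scaling each library without the muscle list left the calls of miR-322-3p, miR-351-5p and miR-503-5p in WT, miR-351-5p, miR-450a-5p and miR-503-5p in KO and all 4 in A537T in place, and added miR-450a-5p and miR-450b-5p in WT.

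At 30 weeks the direction was the opposite in WT and KO mice. miR-542-3p and miR-450b-5p, the 2 scarcest members, rose with TRAMP in both lines, and 0 members fell. The members called higher numbered 2 of 7 in WT, against 15.4% of all miRNAs tested, and 2 of 7 in KO, against 27.2%, with positive signs for 7 of 7 members in each. The KO count was therefore near the share of all miRNAs. The median of the members and of all miRNAs was 0.85 and -0.11 in WT and 0.70 and 0.34 in KO. The number depended on the method. In WT, edgeR and limma after TMM scaling called 4 members and DESeq2 5, and in KO edgeR called 1, without miR-542-3p at 1.37 (adjusted p = 0.0576), and DESeq2 2. For these alternatives the share of all miRNAs called is not given. In A537T mice 0 of 7 members passed by limma, 0 had an unadjusted p under 0.05 and 0 passed by edgeR or DESeq2, against 10.9% of all miRNAs called by limma in either direction.

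miR-542-3p was measured at 0.235, 0.894 and 1.61 CPM in WT and 8.51, 1.30 and 3.43 CPM in WT-TRAMP at 30 weeks. The groups overlapped, since WT-TRAMP library 11 was below the highest WT library, and the level rose by 1.33 ± 0.40 (SE; adjusted p = 0.0131). KO libraries held 1.76, 0.480 and 2.02 CPM and KO-TRAMP libraries 3.55, 5.27 and 4.99 CPM, without overlap, a rise of 1.27 ± 0.40 (SE; adjusted p = 0.0132). In A537T mice the libraries stood at 1.83, 0.866 and 2.12 CPM and 2.56, 3.30 and 2.71 CPM with TRAMP, which did not overlap either, but the difference of 0.60 ± 0.40 (adjusted p = 0.402) did not pass. miR-450b-5p rose by 0.86 ± 0.26 (SE; adjusted p = 0.0138) in WT, from 0.176, 1.10 and 0.879 to 2.57, 1.44 and 2.21 CPM. It rose by 0.91 ± 0.26 (SE; adjusted p = 0.00759) in KO, from 0.879, 0.343 and 0.835 to 2.22, 2.11 and 2.05 CPM, which was 0.57 relative to the median of all miRNAs. Neither pair of groups overlapped, whereas in A537T the difference was 0.30 ± 0.26 (adjusted p = 0.561).

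The 2 members called lower at 10 weeks in all lines, miR-351-5p and miR-503-5p, did not pass at 30 weeks by limma. miR-351-5p differed by 0.08 ± 0.32 (adjusted p = 0.875) in WT, 0.52 ± 0.32 (adjusted p = 0.208) in KO and -0.49 ± 0.32 (adjusted p = 0.389) in A537T. miR-503-5p differed by 0.85 ± 0.33 (adjusted p = 0.0504), 0.70 ± 0.33 (adjusted p = 0.0966) and -0.07 ± 0.33 (adjusted p = 0.951) in the same order. miR-322-5p, with 1.02 ± 0.40 (adjusted p = 0.0504) in WT and 0.91 ± 0.40 (adjusted p = 0.0722) in KO, lay just short of the threshold by limma, and in WT both miR-322-5p and miR-503-5p passed by edgeR, DESeq2 and limma after TMM scaling or without the muscle list. TRAMP libraries were wholly above the others for 1 member in WT, 6 in KO and 1 in A537T, against 23.3%, 32.1% and 19.5% of all miRNAs, and wholly below for 1 member in A537T, miR-351-5p, against 11.5%. In WT the calls were lost without library 10, at 0.80 for miR-542-3p and 0.74 for miR-450b-5p, and without library 19, at 1.05 and 0.61. In KO, miR-542-3p was lost without library 17 or 23, at 1.18 and 0.94, and the call of miR-450b-5p was kept without any 1 library.

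**Figure D3:**
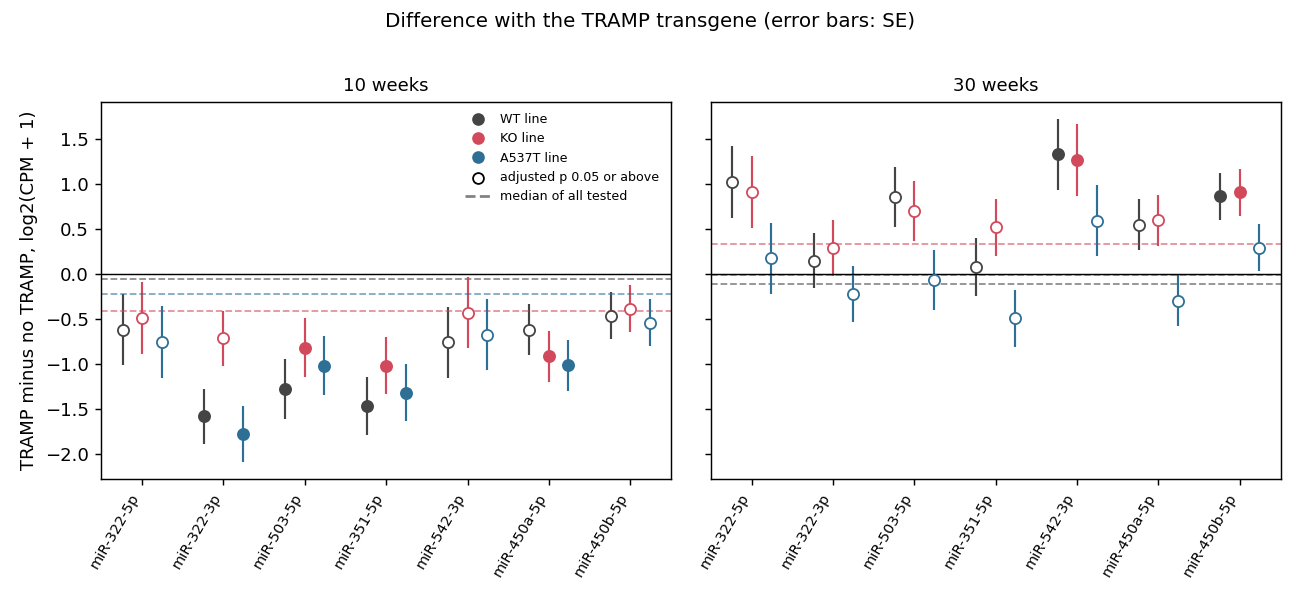
Difference in log2(CPM + 1) between mice with and without TRAMP (y axis) for each member (x axis) at 10 weeks (left) and 30 weeks (right), with bars for SE, filled points for an adjusted p under 0.05 and dashed lines for the median of all 514 miRNAs in each Elac2 line. All 21 points are below 0 at 10 weeks. At 30 weeks the 14 points of WT and KO are above 0, and 4 of the 7 of A537T are below it.

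At 30 weeks the list of stroma and smooth muscle had 0 of 6 miRNAs lower in WT, 0 of 6 in KO and 0 of 6 in A537T, and skeletal muscle miRNAs were at most 0.937% of reads with TRAMP and 0.821% without. White blood cell miRNAs (miR-142a, miR-150 and miR-223) had 2 of 4 higher in WT, 2 of 4 in KO and 2 of 4 in A537T, with summed shares of 0.0209% to 0.0321% in WT and 0.0833% to 0.108% in WT-TRAMP. The miR-17-92 cluster, known from proliferating cells, had 6 of 6, 5 of 6 and 5 of 6 miRNAs higher. In the Dlk1-Dio3 cluster 3 of 7 miRNAs fell in WT, 4 of 7 rose in KO and 0 of 7 passed in A537T. Of the neuroendocrine list (miR-7a, miR-9, miR-124 and miR-375, which the epithelial list also holds), 0 of 4 rose in WT, 1 of 4 in KO and 0 of 4 in A537T. Of all miRNAs at 30 weeks, 15.4% were called higher in WT and 27.2% in KO, and 10.9% in either direction in A537T. The part of these lists in the values of the cluster was not tested.

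Whether the TRAMP difference itself changed with age was tested as the difference of the 2 TRAMP differences of a line. It was positive for 7 of 7 members in each line, and 5 members passed in WT, 5 in KO and 1 in A537T, against 5.84%, 27.8% and 2.72% of all miRNAs called in that direction. The median of the members was 1.64 in WT, 1.51 in KO and 0.93 in A537T, and that of all miRNAs was -0.14, 0.62 and 0.25. The counts shifted between lines with the method. WT had 7 calls under TMM scaling, edgeR and DESeq2, KO had 2, 3 and 2, and A537T had 0 under each of these. CPM without the skeletal muscle list gave 7 in WT, 6 in KO and 1 in A537T. Such counts stand here without the share of all miRNAs that the same method called. In WT the largest values were 2.13 ± 0.47 (SE; adjusted p = 0.00439) for miR-503-5p and 2.09 ± 0.56 (SE; adjusted p = 0.0191) for miR-542-3p, followed by 1.73 ± 0.44 (SE; adjusted p = 0.0132) for miR-322-3p, 1.54 ± 0.45 (SE; adjusted p = 0.0267) for miR-351-5p and 1.32 ± 0.37 (SE; adjusted p = 0.0223) for miR-450b-5p. In KO the values were 1.69 ± 0.56 (SE; adjusted p = 0.0257) for miR-542-3p, 1.54 ± 0.45 (SE; adjusted p = 0.0143) for miR-351-5p, 1.51 ± 0.47 (SE; adjusted p = 0.0175) for miR-503-5p, 1.51 ± 0.40 (SE; adjusted p = 0.00842) for miR-450a-5p and 1.29 ± 0.37 (SE; adjusted p = 0.0128) for miR-450b-5p. Relative to the median of all miRNAs, the KO values of these 5 members ranged from 0.67 to 1.08. In A537T the call was miR-322-3p, at 1.55 ± 0.44 (SE; adjusted p = 0.0499), and the other 6 members lay between 0.72 and 1.27. Whether the term differs between lines was not tested. At 10 weeks without TRAMP, skeletal muscle miRNAs took 9.73% to 30.7% of reads in WT and 3.72% to 13.7% in A537T. KO libraries of that age held 0.736% to 6.51%, and the part of these miRNAs in the term was not tested. The term uses the same 12 libraries of a line as its TRAMP and age comparisons and equals the age difference with TRAMP minus that without, so the 3 are not independent of each other.

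The miR-322-3p call in A537T sat at the threshold. It was lost in 25 of the 36 fits without 1 library, at 1.26 to 1.72, most of which left out a library outside the groups compared and kept the value of 1.55. The call was also lost under TMM scaling at 1.18 (adjusted p = 0.190), by edgeR at 1.33 (adjusted p = 0.141) and by DESeq2 at 1.21 (adjusted p = 0.113), without a filter, with a mean of at least 10 CPM, with a pseudocount of 0.25 CPM and without the variance trend. In KO the call of miR-542-3p was lost under TMM scaling at 1.33 (adjusted p = 0.0606), by edgeR at 1.72 (adjusted p = 0.102), by DESeq2 at 1.59 (adjusted p = 0.0902) and without a filter. That of miR-351-5p was lost under TMM scaling at 1.06 (adjusted p = 0.0681), by edgeR at 1.02 (adjusted p = 0.0775) and by DESeq2 at 0.89 (adjusted p = 0.109), and that of miR-503-5p under TMM scaling and by DESeq2. The miR-503-5p call in WT and the miR-450a-5p and miR-450b-5p calls in KO were kept without any 1 library. In WT, all of the other 4 calls were lost without library 10, at 1.53 for miR-322-3p, 1.33 for miR-351-5p, 1.21 for miR-450b-5p and 1.56 for miR-542-3p. miR-351-5p was also lost without library 2, 12, 19 or 30 (at 1.51, 1.54, 1.25 and 1.38), miR-450b-5p without library 3, 19 or 28 (at 1.18, 1.07 and 1.11) and miR-542-3p without library 1, at 1.81. In KO, library 7 carried the calls of miR-351-5p, miR-503-5p and miR-542-3p, which were 1.11, 1.34 and 1.46 without it. Without library 23 miR-503-5p changed to 1.35 and miR-542-3p to 1.37, and without library 17 or 18 miR-542-3p changed to 1.6 and 1.64.

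The same groups were compared by age, using the libraries that also enter the TRAMP comparisons. Without TRAMP every member had a lower mean at 30 than at 10 weeks in each line, and miR-322-3p passed by limma. It fell by 1.07 ± 0.31 (SE; adjusted p = 0.0226) in WT, from 40.2, 37.2 and 60.6 CPM at 10 weeks to 14.7, 26.8 and 22.9 CPM at 30 weeks, and by 1.09 ± 0.31 (SE; adjusted p = 0.0160) in A537T, from 36.9, 54.9 and 69.4 to 28.3, 15.7 and 30.6 CPM. Neither pair of ages overlapped. This was 1 of 7 members in WT and 1 of 7 in A537T, against 5.06% and 10.3% of all miRNAs called lower. In WT, edgeR and DESeq2 each called 5 members lower (miR-322-3p, miR-322-5p, miR-351-5p, miR-450a-5p and miR-503-5p), as did limma on CPM without the skeletal muscle list, and TMM scaling called 3, whereas in A537T edgeR, DESeq2 and TMM scaling each called miR-322-3p alone and CPM without the muscle list 2. No share of all miRNAs is given for these alternatives. In KO 0 of 7 members passed by limma, edgeR or DESeq2 and 1, miR-450a-5p, on CPM without the muscle list, with 4 at an unadjusted p under 0.05 and 12.8% of all miRNAs called lower by limma, and miR-322-3p differed by -0.44 ± 0.31 (adjusted p = 0.309). The median of the members and of all miRNAs was -0.83 and 0.14 in WT, -0.57 and -0.29 in KO and -0.63 and -0.06 in A537T. The ages did not overlap for 3 members in WT, 6 in KO and 5 in A537T, all lower at 30 weeks, against 10.1%, 41.8% and 22.0% of all miRNAs. The skeletal muscle miRNAs also fell with age in WT (6 of 6) and A537T (5 of 6) but not in KO (0 of 6), and their part was not tested. Leaving out library 19 or 30 ended the WT call, at -0.83 and -0.86, and leaving out library 26, 35 or 36 ended the A537T call, at -0.80, -1.05 and -0.89.

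With TRAMP all 7 members had higher means at 30 than at 10 weeks in WT-TRAMP and KO-TRAMP mice. miR-503-5p rose by 1.30 ± 0.33 (SE; adjusted p = 0.0176) in WT-TRAMP, from 1.32, 1.46 and 2.19 CPM to 10.9, 1.98 and 6.68 CPM, where the lowest 30-week library overlapped the 10-week group, and by 1.11 ± 0.33 (SE; adjusted p = 0.0178) in KO-TRAMP, from 1.28, 2.00 and 2.5 to 7.28, 4.30 and 4.48 CPM, where the ages did not overlap. miR-542-3p rose by 1.35 ± 0.40 (SE; adjusted p = 0.0325) in WT-TRAMP, from 0.220, 1.58 and 0.858 to 8.51, 1.30 and 3.43 CPM. In KO-TRAMP, miR-351-5p rose by 0.97 ± 0.32 (SE; adjusted p = 0.0301) and miR-450b-5p by 0.74 ± 0.26 (SE; adjusted p = 0.0423). The ages did not overlap for 4 members in WT-TRAMP, 4 in KO-TRAMP and 2 in A537T-TRAMP, all higher at 30 weeks, against 17.9%, 19.3% and 19.5% of all miRNAs. The called rises were 2 of 7 members in WT-TRAMP and 3 of 7 in KO-TRAMP, against 3.89% and 17.9% of all miRNAs called higher. In KO-TRAMP, edgeR, DESeq2 and TMM scaling each called miR-503-5p alone, while miR-351-5p was 0.62 (adjusted p = 0.170) by edgeR and 0.72 (adjusted p = 0.0924) by DESeq2, and miR-450b-5p was 0.95 (adjusted p = 0.193) and 1.06 (adjusted p = 0.152). The call of miR-450b-5p was lost as well without a filter, with a pseudocount of 0.25 CPM and with array weights, and that of miR-542-3p in WT-TRAMP without a filter. In A537T-TRAMP 0 of 7 passed by limma, edgeR or DESeq2 and 0 had an unadjusted p under 0.05, against 5.06% called higher by limma, and the members' differences lay between 0.00 and 0.48. White blood cell miRNAs rose in the same comparisons, 1 of 4 in WT-TRAMP, 3 of 4 in KO-TRAMP and 4 of 4 in A537T-TRAMP, and their part was not tested.

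Single libraries decided most of these age calls. In WT-TRAMP, without library 10 the rise of miR-503-5p was 0.86 and that of miR-542-3p 0.83, neither of which passed. miR-503-5p was also lost without library 1, 2 or 12 (at 1.21, 1.25 and 1.18) and miR-542-3p without library 1, 3 or 12 (at 1.07, 1.37 and 1.38). In KO-TRAMP, miR-503-5p was lost without library 7 or 16 (at 0.94 and 0.90), miR-351-5p without library 7, 17 or 18 (at 0.54, 0.87 and 0.95) and miR-450b-5p without library 7, 8, 16, 17 or 18 (at 0.64, 0.65, 0.72, 0.74 and 0.76).

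**Figure D4:**
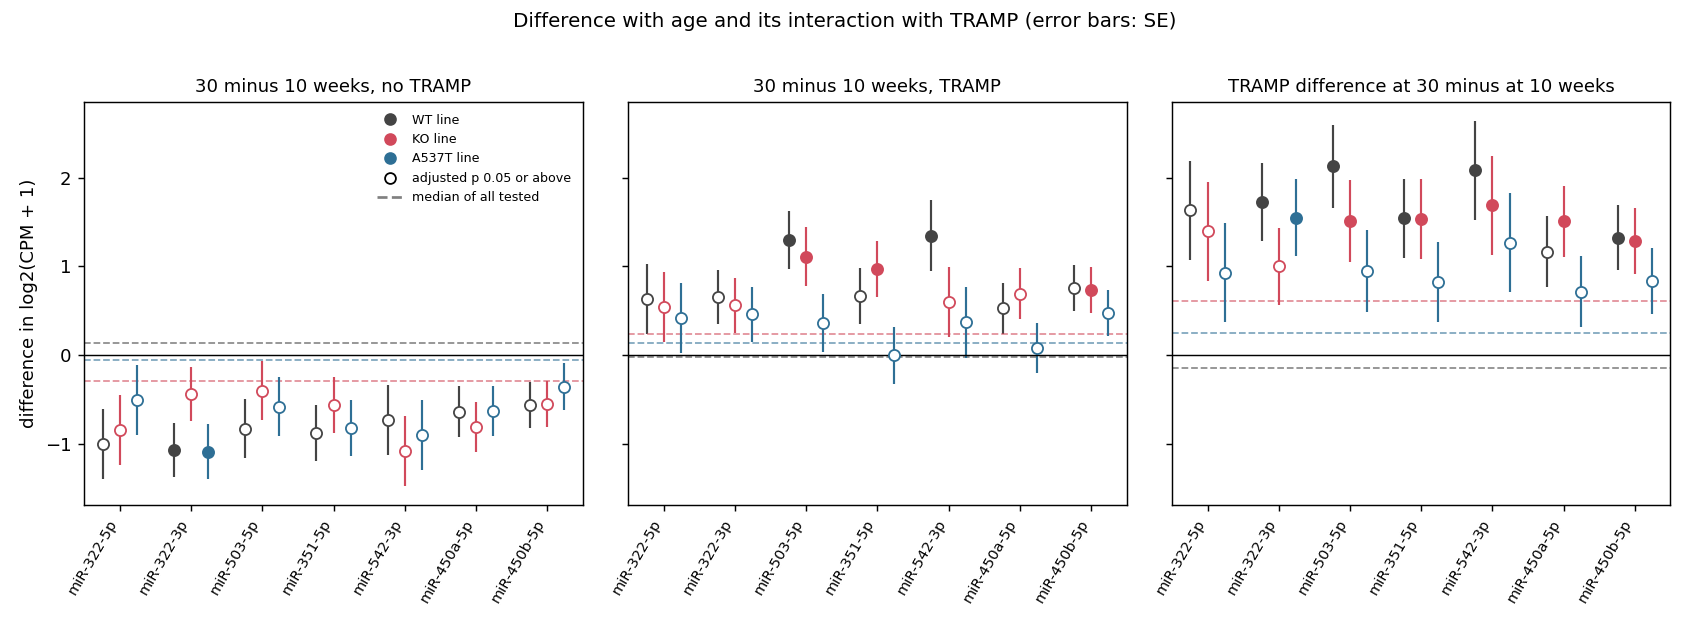
Difference in log2(CPM + 1) between 30 and 10 weeks without TRAMP (left) and with TRAMP (centre), and the TRAMP difference at 30 weeks minus that at 10 weeks (right), for each member (x axis) and Elac2 line, with bars for SE, filled points for an adjusted p under 0.05 and dashed lines for the median of all 514 miRNAs. All 21 points are below 0 on the left and all 21 are above 0 on the right. The filled points on the right are 5 of WT, 5 of KO and 1 of A537T.

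Elac2 genotype was compared with WT on each background and at each age. The cluster showed no difference that passed by limma in any of the 8 comparisons. By limma 0 of 56 tests of members passed, 1 had an unadjusted p under 0.05, and edgeR called 0 and DESeq2 1. The background was 3.89% of all miRNAs called by limma in KO and 0.195% in A537T at 10 weeks, 0.584% and 0% at 30 weeks, 0% and 0% with TRAMP at 10 weeks, and 6.23% and 0% with TRAMP at 30 weeks. Differences of members lay between -0.62 and 1.02 with an SE of 0.26 to 0.40. A p that missed the threshold does not show that the groups were alike.

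The 2 extremes were miR-542-3p in KO-TRAMP against WT-TRAMP at 10 weeks and miR-322-3p in KO against WT at 10 weeks. miR-542-3p stood at 0.220, 1.58 and 0.858 CPM in WT-TRAMP and 1.66, 3.14 and 3.44 CPM in KO-TRAMP, without overlap, a difference of 1.02 ± 0.40 (adjusted p = 0.779). miR-322-3p stood at 40.2, 37.2 and 60.6 CPM in WT and 27.4, 27.1 and 32.7 CPM in KO, also without overlap, a difference of -0.62 ± 0.31 (adjusted p = 0.241), and this was the DESeq2 call. The same WT libraries held 9.73% to 30.7% of skeletal muscle miRNAs against 0.736% to 6.51% in KO, whose part was not tested. These 2 were the only non-overlapping pairs among the 56, against 16.5% of all tests of miRNAs over the 8 comparisons. In A537T the members had positive signs for 7 of 7 at both ages without TRAMP, although miR-351-5p and miR-503-5p at 10 weeks turned negative under TMM scaling and these and miR-450b-5p without the muscle list. They were positive for 7 of 7 at 10 weeks with TRAMP and negative for 7 of 7 with TRAMP at 30 weeks, where the lowest was miR-503-5p at -0.60 ± 0.33 (adjusted p = 0.624). Among the 8 interactions of genotype with TRAMP or with age, 0 of 56 tests of members passed by limma and 0 by edgeR, 1 by DESeq2 (miR-322-3p, for KO with TRAMP at 10 weeks), and 1 had an unadjusted p under 0.05. All miRNAs called by limma in these were 7.98% for KO with TRAMP at 30 weeks, 0.389% for KO with TRAMP at 10 weeks, 0.195% for KO with age without TRAMP, 0.195% for A537T with age with TRAMP and 0% for the other 4.

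Ratios between members of the same library do not depend on how libraries are scaled to each other. Each of 5 members was divided by miR-322-5p, and libraries were compared as 9 against 9, permuted within the Elac2 line in an exact two-sided permutation test that can reach p = 0.000250, with adjustment over 20 tests. All 5 ratios share miR-322-5p, so the tests are not independent, and a change of miR-322-5p alone would move every ratio. miR-450b-5p, the scarcest member, was not tested as a ratio. Levels relative to miR-322-5p differed with TRAMP at both ages. Of 20 tests 9 passed, 7 of them between mice with and without TRAMP. Mir322 is shown with its arms in capitals, miR-322-5p first, because the ratio of its arms was among them.
Mir322 hairpin: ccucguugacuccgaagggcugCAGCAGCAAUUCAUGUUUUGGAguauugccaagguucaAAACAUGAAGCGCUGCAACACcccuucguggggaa

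The ratio of miR-322-3p to miR-322-5p was lower with TRAMP at 30 weeks, where the values from low to high were 1.89, 2.28 and 3.10 in WT, 1.79, 2.38 and 2.54 in KO and 1.35, 1.51 and 1.82 in A537T and, with TRAMP, 1.07, 1.14 and 1.5, 0.995, 1.55 and 1.69 and 0.965, 1.17 and 1.37. The ranges with and without TRAMP did not overlap in WT or KO and overlapped slightly in A537T. The mean log2 ratio differed by -0.69 (exact permutation p = 0.000500, adjusted p = 0.00500), and by -0.96 in WT, -0.68 in KO and -0.42 in A537T. At 10 weeks it differed by -0.75 (exact permutation p = 0.00525, adjusted p = 0.0150), and by -0.99 in WT, -0.22 in KO and -1.04 in A537T, with values of 1.34, 2.05 and 5.06 in WT, 1.54, 1.55 and 1.74 in KO and 1.8, 2.41 and 2.89 in A537T without TRAMP. Skeletal muscle miRNAs were 9.73% to 30.7% of reads in these WT libraries, 0.736% to 6.51% in KO and 3.72% to 13.7% in A537T, and their part in the 10-week difference was not tested. At 30 weeks no library exceeded 0.937%. The ratio did not pass between ages, with -0.05 (exact permutation p = 0.846, adjusted p = 0.939) without TRAMP and 0.02 (exact permutation p = 0.905, adjusted p = 0.952) with it.

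**Figure D5:**
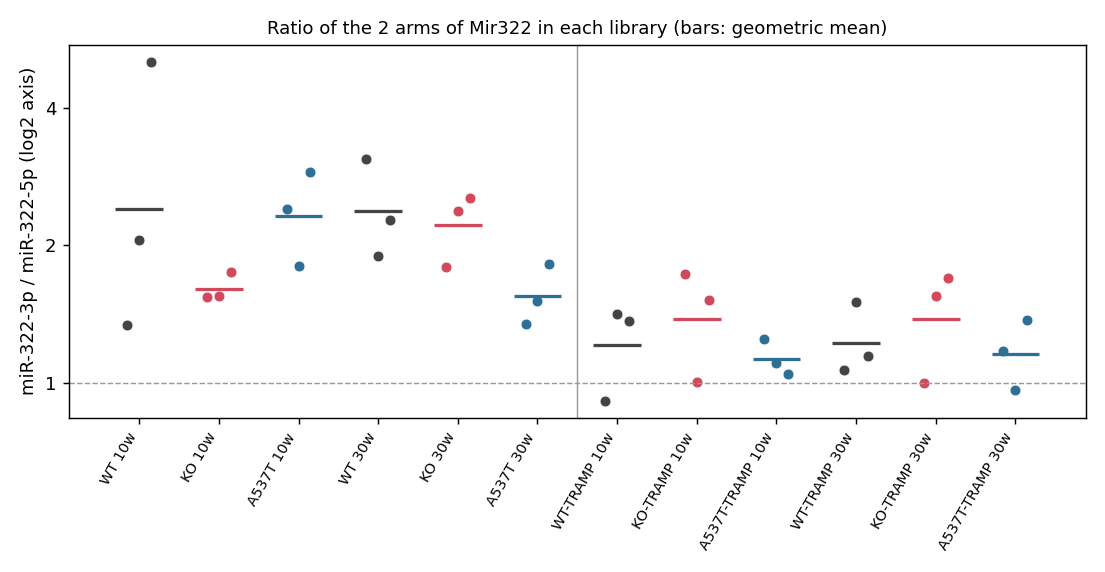
Ratio of miR-322-3p to miR-322-5p (y axis, log2 scale) in each library by group (x axis), with bars for the geometric mean and a dashed line at 1. The 18 libraries with TRAMP, to the right of the vertical line, lie between 0.912 and 1.73, and those without it between 1.34 and 5.06.

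miR-351-5p relative to miR-322-5p was also lower with TRAMP at both ages, with a log2 difference of -0.67 (exact permutation p = 0.000250, adjusted p = 0.00500) at 10 weeks and -0.73 (exact permutation p = 0.00125, adjusted p = 0.00625) at 30 weeks, with the same sign in each line. The 10-week value of -0.89 in WT, -0.55 in KO and -0.58 in A537T stood beside a 30-week value of -1.03 in WT, -0.44 in KO and -0.71 in A537T. miR-503-5p relative to miR-322-5p was lower with TRAMP at 10 weeks, with a log2 difference of -0.72 (exact permutation p = 0.00125, adjusted p = 0.00625), and did not pass at 30 weeks, at -0.14 (exact permutation p = 0.410, adjusted p = 0.588). It was higher at 30 than at 10 weeks with TRAMP, with a log2 difference of 0.65 (exact permutation p = 0.0187, adjusted p = 0.0417). miR-542-3p relative to miR-322-5p was the ratio that was higher with TRAMP, with a log2 difference of 0.94 (exact permutation p = 0.00500, adjusted p = 0.0150) at 30 weeks and of 1.16 in WT, 0.94 in KO and 0.73 in A537T, and it was lower at 30 than at 10 weeks without TRAMP, with a log2 difference of -0.66 (exact permutation p = 0.0168, adjusted p = 0.0417). miR-450a-5p relative to miR-322-5p was lower with TRAMP at 30 weeks, with a log2 difference of -0.46 (exact permutation p = 0.00200, adjusted p = 0.00800). With 1 CPM added to both values, 5 of the 20 tests passed, and the 4 lost were all ratios of miR-503-5p or miR-542-3p, the low members. With the median of a group in place of the mean, 7 passed, and the arm ratio at 10 weeks was -0.58 (adjusted p = 0.05). Leaving out 1 library kept 8 to 10 passing. The ratio of miR-503-5p between ages with TRAMP was lost in 11 of the 36 such tests, at 0.55 to 0.68, and that of miR-542-3p between ages without TRAMP in 12, at -0.69 to -0.50.

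Members also varied together from library to library. After the group means were removed, Pearson's r of log2(CPM + 1) over the 36 libraries was 0.92 for miR-322-3p with miR-351-5p, the closest pair, and 0.83 for miR-322-5p with miR-450a-5p. miR-322-5p and miR-322-3p, which are cut from 1 hairpin, had r = 0.66, and miR-322-3p with miR-450b-5p, the lowest pair of members, had r = 0.46. These values are a description, since the points share library totals and counting error lowers r for the scarce members. Among 294 miRNAs outside the cluster with a mean of at least 10 CPM, the 12 group means of miR-335-5p were most like those of miR-322-5p, with r = 0.83. They were followed by miR-199b-5p, miR-181c-3p, miR-299a-3p and miR-181d-5p, with r of 0.66, 0.65, 0.64 and 0.63.

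Of the 6 other arms of the precursors, miR-503-3p and miR-450b-3p reached a mean of 1 CPM and were tested. miR-503-3p was read more often than miR-503-5p, with 6.16 against 3.79 CPM over the 36 libraries. Like its partner arm it fell with TRAMP at 10 weeks in all 3 lines, by 0.95 ± 0.29 (SE; adjusted p = 0.0117) in WT, 0.91 ± 0.29 (SE; adjusted p = 0.0143) in KO and 1.12 ± 0.29 (SE; adjusted p = 0.00437) in A537T. At 30 weeks it differed by 0.04, 0.10 and -0.50, none of which passed. miR-450b-3p fell by 0.76 ± 0.28 (SE; adjusted p = 0.0365) in WT at 10 weeks and passed in none of the other 5 TRAMP comparisons. miR-351-3p, miR-542-5p, miR-450a-1-3p and miR-450a-2-3p had means of 0.158 to 0.300 CPM and were not tested.

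Most of the miRNAs that share a seed with miR-322-5p rose with TRAMP at both ages, while miR-322-5p itself passed at neither by limma and was below 0 at 10 weeks and above 0 at 30 weeks in all 3 lines. Of miR-15a-5p, miR-15b-5p, miR-16-5p, miR-195a-5p and miR-497a-5p, none of which lies in the cluster, 5 of 5 rose with TRAMP in WT, 3 in KO and 4 in A537T at 10 weeks, when the members had negative signs, and 4, 5 and 4 of 5 rose at 30 weeks. At 30 weeks 15.4% of all miRNAs were called higher in WT and 27.2% in KO, and 10.9% were called in either direction in A537T. The share called higher at 10 weeks is not given. miR-15b-5p rose by 2.91 ± 0.28 (SE; adjusted p = 4.22e-09) in WT at 10 weeks, from 35.6 ± 9.17 to 269 ± 26.3 CPM (SD, n = 3), and by 2.53 ± 0.28 (SE; adjusted p = 5.04e-08) at 30 weeks, from 36.9 ± 3.14 to 217 ± 7.33 CPM. miR-497a-5p, which is made from the same transcript as miR-195a, rose by 1.6 ± 0.25 (SE; adjusted p = 1.13e-05) and 1.51 ± 0.25 (SE; adjusted p = 4.25e-05) in the same comparisons, where miR-322-5p had -0.62 and 1.02. miR-16-5p, the most abundant of the family here, was at 748 ± 254 CPM in WT at 10 weeks, against 20.1 ± 9.19 CPM for miR-322-5p. The relatives of miR-351-5p, miR-125a-5p and miR-125b-5p, passed in none of the 6 TRAMP comparisons. Their differences in WT at 10 weeks were -0.27 ± 0.22 and -0.29 ± 0.19 (SE), against -1.46 for miR-351-5p. The difference between the members and their seed relatives was not itself tested.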

How the data were processed

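Small RNA-seq was made from total RNA of 36 prostate samples with the Illumina TruSeq small RNA kit. The authors merged reads and removed adapters with BBMerge, counted mature miRNAs with mirDeep2 against GRCm38 and miRBase, summed identical names or sequences, and deposited normalised read counts in 8 tables of 6 libraries, each count divided by a DESeq2 size factor set within its table. These deposited values are a signal, not raw counts. All values came out as whole reads (tolerance 0.01 read), and a control column that stood in 2 tables gave the same reads in 12 of 12 cases. Columns carry a library number only, so groups were taken from the tables, the column shared by the KO and the Mut table being the control and Mut being read as A537T. There were 0 columns matched to no group. The deposited comparison tables, which hold log2 fold changes and s-values of the authors, and the lists of identical IDs were not used.

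Each library was divided by its total and scaled to CPM. limma 3.58.1 with a variance trend (R 4.3.3) was fitted to log2(CPM + 1) of the 514 miRNAs with a mean of at least 1 CPM, with 12 group means, and p-values were adjusted by Benjamini-Hochberg per comparison at 0.05. A value called lower or higher passed that threshold. Shares of all miRNAs called are from this limma fit, and counts of members under the alternatives have no such share beside them. The file unit was not counts, so edgeR 4.0.16 and DESeq2 1.42.0 on the recovered reads were alternatives, with other scalings, pseudocounts, filters, weights and each library left out. Ratios were tested with scipy 1.17.1 by an exact permutation test within the Elac2 line. Depth was 655455 to 21870210 reads per library, and binomial intervals were exact (Clopper-Pearson). The limma fit was tested on simulated reads. Mature sequences and hairpins were from RefSeq (GRCm38.p6), where 1670 of 1963 names matched, and Mir351 and gene annotation from GENCODE. All 7 members were described, and other miRNAs were named from marker, cluster and seed lists or by the highest correlation with miR-322-5p. The members and lists were chosen with earlier results of these data known.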

Additional observations from a re-analysis of the deposited data

Results flagged for a closer look

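In 11 cases the TRAMP difference of a member changed with age, by the interaction term of limma on log2(CPM + 1) with adjustment over 514 miRNAs. The values are the TRAMP difference at 30 weeks minus that at 10 weeks. Of all miRNAs, 5.84% in WT, 27.8% in KO and 2.72% in A537T were called in that direction, with a median of 0.62 in KO. In WT they were 2.13 for miR-503-5p, 2.09 for miR-542-3p, 1.73 for miR-322-3p, 1.54 for miR-351-5p and 1.32 for miR-450b-5p. In KO they were 1.69 for miR-542-3p, 1.54 for miR-351-5p, 1.51 for miR-503-5p, 1.51 for miR-450a-5p and 1.29 for miR-450b-5p. In A537T the value was 1.55 for miR-322-3p, which did not pass by edgeR, DESeq2 or after TMM scaling. In KO, miR-542-3p and miR-351-5p did not pass by any of these 3 and miR-503-5p passed by edgeR alone. Without library 10, the WT calls other than that of miR-503-5p were lost. Without library 7, the KO calls of miR-351-5p, miR-503-5p and miR-542-3p were lost. No group here held more than 3 libraries, so single libraries that stand apart within a group were not tested.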

How the results depend on the processing

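Without any 1 library, the count of members called was 0 to 1 for genotype, 12 to 17 for TRAMP, 5 to 11 for age, 7 to 14 for interactions and 8 to 10 for ratios, against 0, 14, 7, 11 and 9. Counts moved by over 1.5 times as follows. With array weights, whose estimation did not converge to its tolerance, 5 members were called for genotype, 23 for TRAMP, 20 for age and 24 for interactions. With a mean of at least 10 CPM, 8 of 24 TRAMP tests, 3 of 24 age tests and 4 of 44 interactions remained past the threshold, since 4 of 7 members were left. Scaling without the skeletal muscle list gave 13 for age. DESeq2 called 1 for genotype, and a pseudocount of 1 CPM in the ratios left 5. TMM scaling gave 16, 8 and 9 calls for TRAMP, age and interactions, edgeR 14, 9 and 10, DESeq2 14, 9 and 10, and no filter 13, 5 and 8. These totals held shifts between lines, with more calls in WT and fewer in KO in several comparisons, given beside each comparison. No called value changed sign under any alternative. TMM scaling changed the sign of 6 of 56 uncalled genotype values, 1 of 42 age values and 11 of 77 interactions, none over 0.29 in size. The genotype fits within each deposited table and within 1 age called 0, and the fit within 1 age called 15 for TRAMP, while age and interactions could not be fitted that way. A fit without the libraries rich in skeletal muscle miRNAs would leave WT and A537T at 10 weeks without a library. The causes of these shifts were not tested. No paired analysis was possible because the columns carry no replicate number. Depth limited miR-542-3p, miR-450b-5p and miR-503-5p, and library 35 most.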
